A study of Mus musculus with 6 samples.

Results

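The cytosolic ribosomal protein genes were described by the open chromatin assigned to them in natural killer (NK) cells, innate lymphocytes that kill virus-infected and tumour cells. ATAC-seq, in which a transposase inserts adapters into open DNA, had been run on NK cells sorted from C57BL6 mouse spleen as CD3- CD5- NK1.1+ NKp46+ cells, with 3 wildtype libraries and 3 Rroid-deficient libraries. Rroid, a locus close to Id2, gives rise to a long noncoding RNA, and the labels gave neither the deleted interval nor the age or sex of the mice. The labels gave 50000 cells per genotype and transposition in triplicate, and did not say that libraries came from separate animals. The p-values therefore cover no more than the scatter among these libraries, and this scatter may be technical.

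Members were the peaks whose nearest gene carried a name beginning with Rpl, Rps or Rplp followed by a digit, without the Rps6k kinases. The rule took 217 of 51775 peaks, spread over 82 gene names. Of these, 45 were annotated as promoter peaks and 172 were not. The latter were 33 peaks centred within 1000 bp of a start site but annotated to an intron, exon, 5′ UTR, non-coding transcript or transcription end, and 139 distal peaks. Among 76 listed ribosomal protein genes, 70 had at least 1 peak, 68 had a peak at the start site, and Rpl26 and Rpl34 had distal peaks only. The 6 with none under their own name included Rps25, Rps27, Rpl4, Rpl7 and Rpl41. The pattern also took 12 names outside that list, such as the paralogs Rps27l, Rpl22l1 and Rps4l, pseudogenes, and Rps19bp1, which encodes a protein that binds ribosomal protein S19 and is not itself a ribosomal protein.

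Ribosomal proteins assemble with ribosomal RNA into a small subunit, which decodes messenger RNA, and a large subunit, which joins amino acids. The P-stalk proteins Rplp0, Rplp1 and Rplp2 form the large-subunit arm that recruits translation factors. Their genes are active in nearly every cell, and many of their transcripts begin with a run of pyrimidines (C and T), the 5′ terminal oligopyrimidine tract through which growth signalling controls their translation.

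RefSeq promoter sequence (GRCm38.p6) matched 59 of the 82 names. The stretches below run from 100 bases before to 30 bases after the annotated start, 5′ to 3′ on the gene's strand, with the longest run of C and T between 20 bases before and 30 bases after the start in capitals. The first 5 belong to genes with a lower promoter peak in Rroid-deficient cells, and the last 3 to tall peaks with no call. Between them stands Rpl38, the only listed gene whose tallest start-site peak was higher.
Rpl9: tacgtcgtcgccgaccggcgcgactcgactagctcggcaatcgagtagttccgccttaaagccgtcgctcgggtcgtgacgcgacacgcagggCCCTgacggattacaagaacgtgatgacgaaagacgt
Rpl10: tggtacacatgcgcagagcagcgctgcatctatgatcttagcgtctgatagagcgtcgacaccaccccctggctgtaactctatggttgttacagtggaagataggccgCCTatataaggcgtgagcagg
Rps16: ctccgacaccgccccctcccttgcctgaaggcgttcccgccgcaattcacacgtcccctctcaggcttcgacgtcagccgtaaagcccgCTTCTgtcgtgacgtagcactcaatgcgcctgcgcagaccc
Rpl18: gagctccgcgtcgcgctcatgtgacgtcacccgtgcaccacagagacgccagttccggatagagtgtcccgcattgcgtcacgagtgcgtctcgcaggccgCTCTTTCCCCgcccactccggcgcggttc
Rpl27a: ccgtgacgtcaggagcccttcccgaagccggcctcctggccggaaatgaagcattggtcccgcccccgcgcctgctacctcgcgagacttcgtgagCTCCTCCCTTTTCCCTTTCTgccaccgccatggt
Rpl38: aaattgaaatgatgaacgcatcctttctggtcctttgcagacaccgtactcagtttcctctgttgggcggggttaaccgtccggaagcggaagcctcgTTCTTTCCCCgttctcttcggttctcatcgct
Rpl14: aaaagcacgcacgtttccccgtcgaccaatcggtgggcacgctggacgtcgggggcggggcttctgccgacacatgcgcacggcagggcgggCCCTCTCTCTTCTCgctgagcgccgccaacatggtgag
Rpl35: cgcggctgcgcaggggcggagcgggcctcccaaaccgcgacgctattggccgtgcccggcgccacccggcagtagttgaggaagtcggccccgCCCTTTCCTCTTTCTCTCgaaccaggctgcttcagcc
Rps13: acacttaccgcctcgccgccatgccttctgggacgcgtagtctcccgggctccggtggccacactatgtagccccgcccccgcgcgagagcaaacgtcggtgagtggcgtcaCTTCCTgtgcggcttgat

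In that build the stretches lie at chr5:65391402-65391531 (Rpl9, minus strand), chrX:74270716-74270845 (Rpl10, plus), chr7:28350589-28350718 (Rps16, plus), chr7:45717971-45718100 (Rpl18, plus) and chr7:109519095-109519224 (Rpl27a, plus). The remaining stretches lie at chr11:114668480-114668609 (Rpl38, plus), chr9:120571417-120571546 (Rpl14, plus), chr2:39005102-39005231 (Rpl35, minus) and chr7:116334161-116334290 (Rps13, minus). The longest run was 20 bases in Rpl27a, 18 in Rpl35, 14 in Rpl14, 10 in both Rpl18 and Rpl38, 6 in Rps13, 5 in Rps16, 4 in Rpl9 and 3 in Rpl10. The genes whose promoter peak was lower thus included both the longest and the shortest runs shown.

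Across the 59 promoter windows of 50 listed genes with a start-site peak, 45.8% held a run of at least 8 pyrimidines near the start, against 19.0% of all 32851 promoter windows and 21.3% of those of mitochondrial ribosomal protein genes. Short motifs were searched on both strands of the whole 300-base windows, and none of the strings contains another. The ETS-type string CCGGAAG occurred in 33.9% of the ribosomal protein windows and 8.86% of all windows, and the GC box GGGCGG in 62.7% and 35.7%. The YY1-type string GCCATNTT occurred in 20.3% and 6.05%. Mitochondrial ribosomal protein windows held these strings at 34.7%, 52.0% and 28.0%, so that the ETS-type and YY1-type strings were at least as frequent there. TATAAA was in 10.2% of the ribosomal protein windows and 13.6% of all windows, CACGTG in 10.2% and 7.15%, and GCATGCGC in 5.08% and 2.71% (6.67%, 9.33% and 10.7% of the mitochondrial ribosomal protein windows). The start-site peaks had a median log2 fold change of -0.14 for the 27 genes with a pyrimidine run of at least 8 bases and -0.16 for the 23 without, and -0.07 for the 19 genes with CCGGAAG and -0.17 for the 31 without. These are descriptions of letters in a window, and no difference between such groups was tested.

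The table's values are reads per peak after normalization between libraries, called normalized reads below, and every value was a whole number of reads in its library. A library held between 27572006 and 47939665 such reads within peaks, with medians of 151 to 224 reads per peak, and Rroid-deficient libraries 4 and 6 were the shallowest. Start-site peaks were present for 9 of 10 NK cell marker genes (all but Il2rb), with summed values of 23175 to 26659 in wildtype and 18312 to 22244 in Rroid-deficient libraries. Among markers of other cells, 5 of 10 T cell genes had such a peak (summed 4004 to 4207 in wildtype and 4110 to 4574 in Rroid-deficient libraries, with none for Cd3d, Cd3e, Cd4, Cd8a or Cd8b1). The same held for 4 of 10 B cell genes (384 to 467 and 800.4 to 983, with none for Cd79a or Ms4a1), 3 of 13 myeloid genes (1296 to 1550 and 1121 to 1206) and 2 of 8 erythroid genes (3217 to 3399 and 3266 to 3513). Most of the T cell sum came from Cd247, with means of 2748 in wildtype and 2487 in Rroid-deficient libraries. Most of the erythroid sum came from Tfrc (3128 and 3198). Start-site peaks of Cd3g (58.7 ± 5.84 against 353 ± 33.5 normalized reads, SD, n = 3 libraries each), of Cd5 (64.5 ± 47.2 against 130.3 ± 11.8, with overlapping groups), whose protein was a negative gate of the sort, and of the B cell coactivator gene Pou2af1 (155 ± 34.5 against 606 ± 65.6) were higher in Rroid-deficient libraries (limma adjusted p under 0.05). Of the 9 NK cell peaks, 5 were lower (limma adjusted p under 0.05), those of Gzmb, Gzma, Prf1, Klrb1c and Tbx21. The groups overlapped at Klrb1c and Tbx21. Not called were Eomes and Ncr1 (log2 fold changes -0.24 and -0.25) and Klrk1 and Klrd1 (0.22 and 0.22). The start-site peak of the myeloid list gene Itgam was lower (519 ± 84.3 against 345 ± 57.7 normalized reads, SD, limma adjusted p = 0.00855). The bulk values do not show which cells held this or any other marker peak. The remaining T cell, B cell, myeloid and erythroid marker peaks were not called. The part of these marker differences in the results on ribosomal protein genes was not tested. In bulk chromatin, fewer cells with an open site and less opening per cell cannot be told apart.

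Promoter peaks of ribosomal protein genes were tall, and the share called was near that of promoters in general. Their median was 2351 normalized reads against 1431 over all 6486 promoter peaks, at percentile 66.8, and 38 of the 45 were above that median. In Rroid-deficient cells 7 of 45 fell, 0 rose and 38 were not called (limma on log2(value + 1), Benjamini-Hochberg adjusted p under 0.05 over all 51775 peaks). The 7 were 15.6% of the members, against 18.7% of all promoter peaks called in either direction and 25.8% of all peaks. Over all promoter peaks 8.8% fell and 9.94% rose. At an unadjusted p under 0.05, limma gave 12 of the 45 lower and 0 higher, as did edgeR, and edgeR and DESeq2 also called 0 higher after adjustment.

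The 45 promoter peaks had a median log2 fold change of -0.14, against -0.03 over all promoter peaks, and 40 of 45 were below 0. The Rroid-deficient means lay between 68.2% and 115% of the wildtype means. All 3 Rroid-deficient values were below all 3 wildtype values at 14 of the 45 (19.2% of all promoter peaks), all 3 were above at 0 (15.8% of all promoter peaks), and the groups overlapped at 31. Peak height moved with this measure across promoters in general. Promoter peaks at or above the median height had a median of -0.09 with 362 lower and 85 higher of 3243, and those below it had 0.08 with 209 lower and 560 higher. Deciles 6 to 9 by height held 9, 13, 4 and 10 of the members, and the medians of all promoter peaks in them were -0.03, -0.07, -0.07 and -0.11. The tallest decile, with 2 members, had -0.13. The part of height in the members' shift was not tested.

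Summed over the 45 promoter peaks, wildtype libraries held 115976, 127599 and 123306 normalized reads and Rroid-deficient libraries 103125, 116978 and 109355. The Rroid-deficient sum was 89.8% of wildtype (109820 ± 6938 against 122294 ± 5877, SD, n = 3 each), with library 5 above wildtype library 1. The same share was 94.8% over all promoter peaks and 93.6% over those at or above the median height. The count of lower promoter peaks rested on which libraries entered the fit: it was 8 without wildtype library 1, 1 without library 2 and 4 without library 3, and 2, 14 and 2 without Rroid-deficient libraries 4, 5 and 6. The median stayed below 0 in each of these fits, from -0.20 to -0.07.

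**Figure D1:**
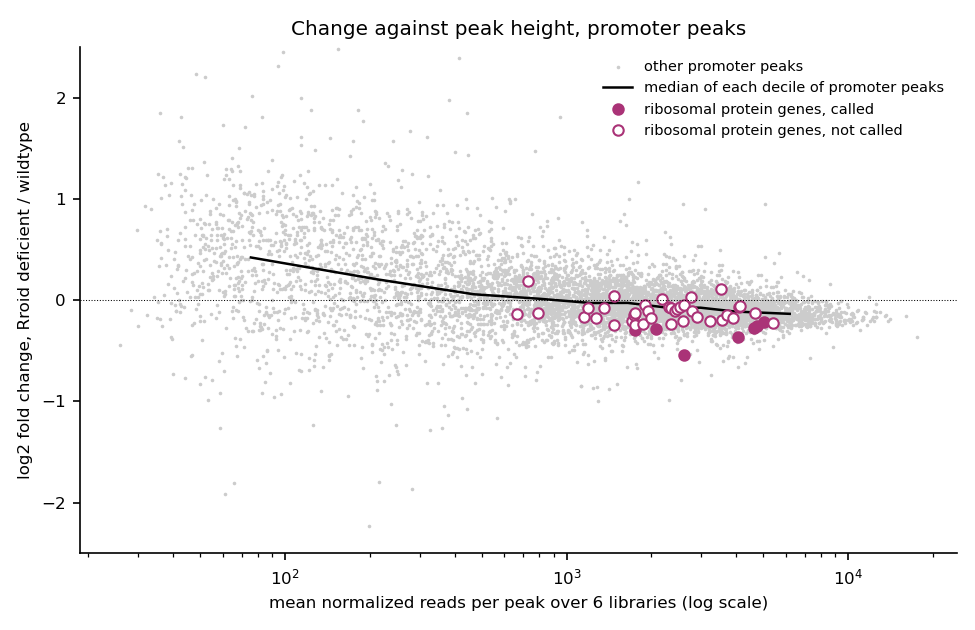
Log2 fold change (Rroid deficient over wildtype, vertical axis) against the mean normalized reads over the 6 libraries (horizontal log axis) for all promoter peaks (grey), with the median of each height decile (line) and the 45 promoter peaks of ribosomal protein genes (purple, filled where the adjusted p was under 0.05). The 7 filled points and 40 of the 45 members lie below 0, and 4 grey peaks fall outside the plotted range.

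Among large-subunit genes, 5 of 23 promoter peaks fell and 0 rose, with a median log2 fold change of -0.17. Rpl9, a core protein of the large subunit, had the largest change of the 45. Its peak (mm9, chr5:65781679-65783163) held 2664, 3192 and 3428 normalized reads in wildtype libraries and 2028, 2203 and 2100 in Rroid-deficient libraries. The log2 fold change was -0.55 (SE 0.10, limma adjusted p = 0.000457), the groups did not overlap, and the call held in every alternative fit. The annotation assigned this promoter to the neighbouring Lias transcript as well, which encodes lipoic acid synthetase, so that the fall cannot be assigned to either gene.

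Rpl10, whose protein joins the large subunit late in its assembly, had the next largest fall. Its peak (chrX:71515295-71517059, centred 22 bp from the start) held 4160, 5236 and 4383 normalized reads in wildtype and 3209, 3756 and 3709 in Rroid-deficient libraries. The groups did not overlap, with a log2 fold change of -0.36 (SE 0.09, limma adjusted p = 0.00877, and 0.0613 without wildtype library 2).

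The other large-subunit falls were smaller and less firm. The Rpl18 peak (chr7:52972885-52973929, shared with a Sphk2 transcript) held 2174, 2542 and 2099 normalized reads in wildtype and 1717, 1967 and 1911 in Rroid-deficient libraries, without overlap (log2 fold change -0.28, SE 0.10, limma adjusted p = 0.039). Rpl27a had among the tallest peaks and the tightest groups, at 5205, 5458 and 5501 against 4653, 4750 and 4527 normalized reads (chr7:116661943-116663438, log2 fold change -0.21, SE 0.07, limma adjusted p = 0.0381). Rpl13a, which encodes a large-subunit protein also known for silencing inflammatory messenger RNAs in myeloid cells, had 4704, 5675 and 5073 against 3966, 4764 and 4250 normalized reads (chr7:52383474-52384863, log2 fold change -0.25, SE 0.09, limma adjusted p = 0.0465). Its groups overlapped, since Rroid-deficient library 5 was above wildtype library 1. Without 1 library, the adjusted p reached 0.21 for Rpl18, 0.213 for Rpl13a (both without wildtype library 2) and 0.179 for Rpl27a (without Rroid-deficient library 6).

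Most other large-subunit promoters were not called. Rpl37 was the tallest of all 45, at 5221, 5791 and 6430 normalized reads in wildtype and 4904, 5184 and 4806 in Rroid-deficient libraries. Its groups did not overlap, yet it missed the limit (log2 fold change -0.22, SE 0.08, limma adjusted p = 0.0577) and passed it without wildtype library 1 (0.0175) or Rroid-deficient library 5 (0.0376). Rpl15 (3986, 3996 and 4603 against 4118, 4019 and 3956 normalized reads) had a log2 fold change of -0.05. Rpl14, Rpl35 and Rpl30 were the large-subunit promoters with values above 0, at log2 fold changes of 0.01, 0.04 and 0.11.

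Among small-subunit genes, 2 of 17 promoter peaks fell and 0 rose, with a median log2 fold change of -0.14. Rps29, a small zinc-binding protein, had a tall peak (chr12:70259398-70260996) of 4717, 5242 and 5239 normalized reads in wildtype and 4050, 4423 and 4115 in Rroid-deficient libraries. Rps16, a protein of the subunit's head, had a lower peak (chr7:29135267-29136286) of 1786, 2112 and 1891 against 1501, 1641 and 1568 normalized reads. Neither pair of groups overlapped, with log2 fold changes of -0.27 (SE 0.08, limma adjusted p = 0.0167) for Rps29 and -0.29 (SE 0.09, adjusted p = 0.027) for Rps16. Both calls were lost without wildtype library 2 (0.0677 and 0.149), Rroid-deficient library 4 (0.0635 and 0.0921) or library 6 (0.0927 and 0.0949), and that of Rps29 also without wildtype library 3 (0.0563).

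Small-subunit promoters without a call included some of the closest matches between genotypes. Rps27a, which encodes a ubiquitin fused to a ribosomal protein, had 2543, 2744 and 2883 normalized reads in wildtype and 2830, 2780 and 2754 in Rroid-deficient libraries (log2 fold change 0.04, SE 0.08). Rps13 had 2808, 2520 and 2604 against 2537, 2577 and 2555 normalized reads (log2 fold change -0.05, SE 0.08). The groups overlapped at both, as at Rps3 (2529, 2643 and 2564 against 2363, 2625 and 2414, log2 fold change -0.06) and Rps19 (4410, 5119 and 5064 against 4076, 4760 and 4564, log2 fold change -0.12, limma adjusted p = 0.314). Rps19 is the gene most often mutated in Diamond-Blackfan anaemia. The P-stalk promoters Rplp1 and Rplp2 were not called (log2 fold changes -0.09 and -0.07). The 3 promoter peaks of names outside the list, those of Rps27l, Rpl7l1 and Rps19bp1, were not called either, at -0.10, -0.12 and 0.18.

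**Figure D2:**
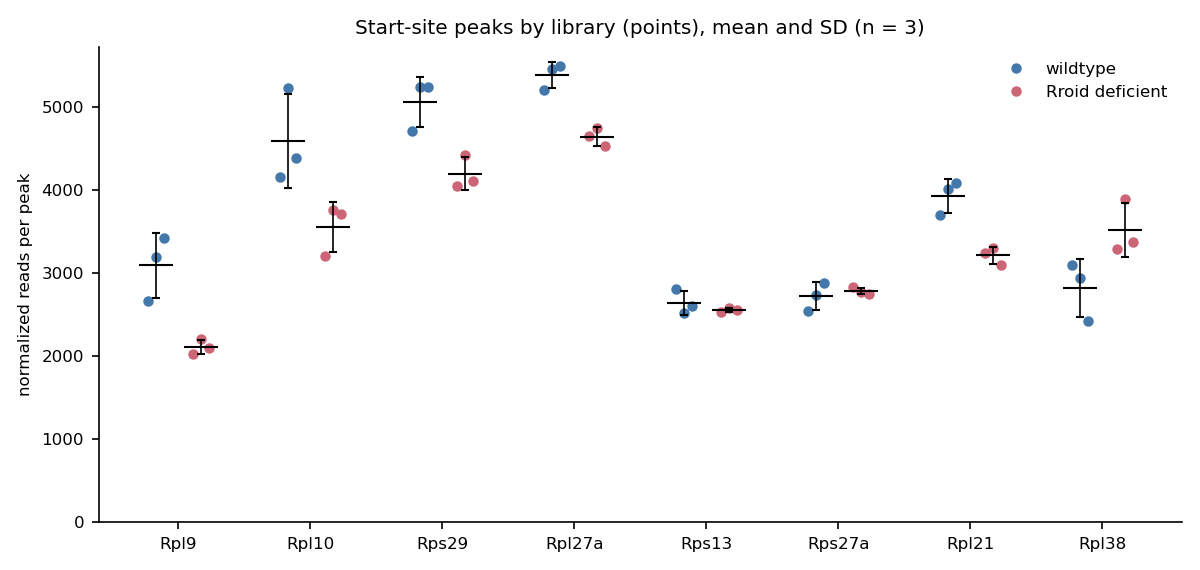
Normalized reads per peak (vertical axis from 0) in each of 3 wildtype (blue) and 3 Rroid-deficient (red) libraries for 8 start-site peaks, with the mean and SD of each group in black. Rpl9, Rpl10, Rps29, Rpl27a and Rpl21 show non-overlapping lower values in Rroid-deficient libraries, Rps13 and Rps27a overlap, and Rpl38 is higher without overlap.

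Start-site peaks that the annotation did not class as promoters gave 2 lower and 3 higher of 33, where 8.64% of all such peaks were lower and 11.0% higher. Their median log2 fold change was -0.12, and 26 of 33 were below 0. Rpl21, a large-subunit protein, had a peak over its 5′ UTR (chr5:147644058-147645200) with 3698, 4020 and 4082 normalized reads in wildtype and 3248, 3300 and 3099 in Rroid-deficient libraries. The groups did not overlap (log2 fold change -0.29, SE 0.08, limma adjusted p = 0.0118, and 0.0853 without Rroid-deficient library 6). Rps12, a small-subunit protein, had 3837, 3977 and 4472 against 3403, 3510 and 3539 normalized reads, also without overlap (chr10:23505881-23507915, log2 fold change -0.23, SE 0.08, limma adjusted p = 0.0452). That call was lost in most alternative fits, with an adjusted p of up to 0.183 (without wildtype library 3). Rplp0, the peak nearest to its start site in this class, had 3208, 3700 and 3391 against 2652, 3172 and 2948 normalized reads (log2 fold change -0.23, SE 0.09, limma adjusted p = 0.0636). Its groups did not overlap.

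Rpl38 was the only listed gene whose tallest start-site peak rose. Rpl38 encodes a large-subunit protein whose loss in mice alters the translation of Hox messenger RNAs. Its peak in the first part of the gene (chr11:114529212-114531548, intronic, centred 285 bp from the start) held 3100, 2948 and 2430 normalized reads in wildtype and 3290, 3895 and 3373 in Rroid-deficient libraries. The groups did not overlap (log2 fold change 0.32, SE 0.10, limma adjusted p = 0.0242), but the call was lost without wildtype library 3 (0.125) or Rroid-deficient libraries 5 (0.0781) or 6 (0.0577).

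The other 2 rises were at weak peaks downstream of a start. An exonic peak of Rps4x, the X-linked small-subunit gene, centred 948 bp from the start (chrX:99382459-99383065), held 87.3, 73.1 and 63.5 normalized reads in wildtype and 131, 127 and 158 in Rroid-deficient libraries. The promoter peak of the same gene, the lowest of the 45, held 711, 717 and 658 against 605, 678 and 617. The weak peak was higher without overlap (log2 fold change 0.89, SE 0.21, limma adjusted p = 0.00486), and the promoter peak was not called (-0.14, adjusted p = 0.389). The Rps4x-like gene Rps4l had 223, 226 and 255 normalized reads in wildtype and 476, 265 and 461 in Rroid-deficient libraries (log2 fold change 0.72, SE 0.19, limma adjusted p = 0.0092). Library 5 lay close to wildtype, and the call was lost without library 6 (0.0637).

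Taking the tallest start-site peak of each of the 68 listed genes, 9 fell and 1 rose, where 8.73% of all 11847 start-site peaks fell and 10.4% rose, and the median of their log2 fold changes was -0.14. The fitted change was under 1.25-fold at 66 of the 68. By subunit, 3 of 27 small-subunit genes fell and 0 rose, 6 of 38 large-subunit genes fell and 1 rose, and 0 of 3 P-stalk genes was called. The difference between subunits was not tested.

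**Figure D3:**
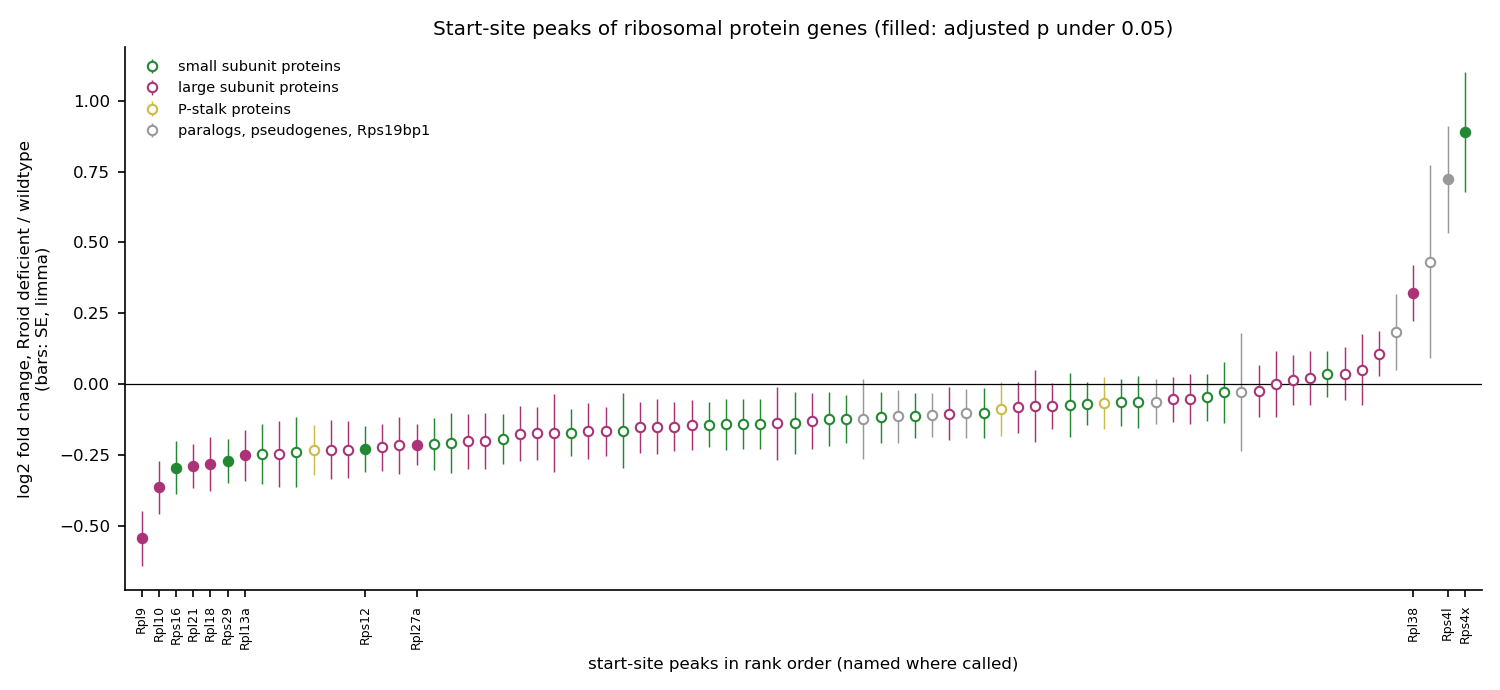
Log2 fold change (Rroid deficient over wildtype, vertical axis, bars SE from limma) of the 78 start-site peaks of ribosomal protein genes in rank order along the horizontal axis, coloured by subunit, and filled and named where the adjusted p was under 0.05. Most points lie between 0 and -0.25, Rpl9 is the lowest at -0.55, and the weak peaks of Rps4x (0.89) and Rps4l (0.72) are the highest.

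Distal peaks were called in both directions. Of the 139 distal peaks, 25 fell and 15 rose, where 13.1% of all distal peaks fell and 14.8% rose. The listed ribosomal protein genes held 114 of the 139, of which 14 fell (12.3%) and 15 rose (13.2%), shares near those of all distal peaks. The other 11 falls carried names outside the list (Rpl32l, Rps4l, Rpl37rt and Rps15a-ps6). With the start-site peaks outside promoters, this made 27 lower and 18 higher of 172, against 12.6% lower and 14.3% higher over all peaks outside promoters. These 172 had a median log2 fold change of -0.10 (0.00 over all such peaks). For listed genes only, 16 of 141 fell and 17 rose, and the median was -0.03. Each distal peak carries the name of the nearest start site, and no contact with that gene was measured. Of the 40 called distal peaks, 18 lay in an intron of another gene, 22 were intergenic and 0 lay in the named gene. Among genes with a called promoter peak, Rpl9, Rpl10, Rpl13a, Rpl18 and Rpl27a had no other peak. The distal peaks of Rps16 and Rps29 were not called, so calls in opposite directions could hardly arise there. Outside the promoter class, Rpl21 had a lower start-site peak and a higher distal peak, and Rps4l the reverse.

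**Figure D4:**
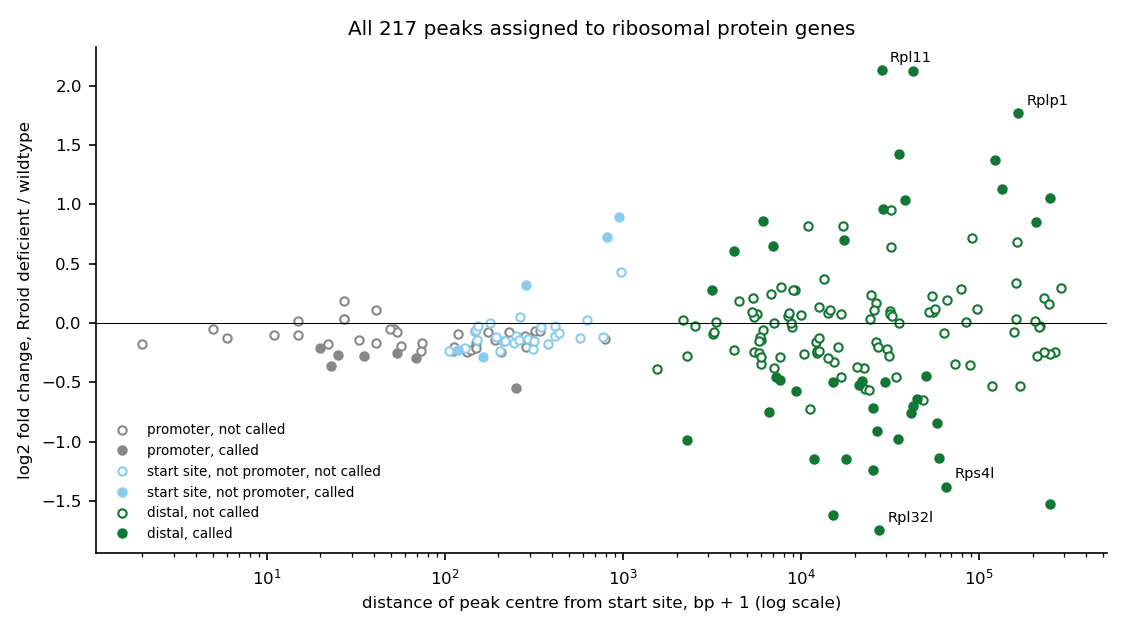
Log2 fold change (Rroid deficient over wildtype, vertical axis) of all 217 peaks against the distance of the peak centre from the start site (bp + 1, horizontal log axis), for promoter peaks (grey), other start-site peaks (light blue) and distal peaks (green), filled where the adjusted p was under 0.05. Promoter peaks lie between -0.55 and 0.18, while called distal peaks reach 2.13 at Rpl11 and -1.75 at Rpl32l.

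Rpl11 showed the largest rises. Its protein binds MDM2 and stabilises p53 when ribosome assembly fails. The start-site peak (chr4:135608354-135609862) held 1394, 1699 and 1422 normalized reads in wildtype and 1260, 1728 and 1549 in Rroid-deficient libraries, with a log2 fold change of 0.00 (SE 0.12, limma adjusted p = 0.998). All 4 distal peaks, 17.5 to 42.5 kb upstream, were higher without overlap.

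The tallest of these 4 (chr4:135643571-135646375) rose from 1021, 1006 and 740 normalized reads to 2335, 2794 and 2262 (log2 fold change 1.42, SE 0.12, limma adjusted p = 3.03e-07). The peak at chr4:135636943-135638293 rose from 109, 126 and 110 to 511, 520 and 488 (log2 fold change 2.13, SE 0.15, adjusted p = 3.05e-08). The other two had log2 fold changes of 2.12 (71.0 ± 28.4 against 295 ± 12.2, SD, n = 3 libraries each, limma adjusted p = 7e-06) and 0.70 (282 ± 38.1 against 457 ± 24.7, adjusted p = 0.00121). All 4 calls held in every alternative fit. The next gene on that side is Id3, an inhibitor of E-protein transcription factors, whose start lies 90.5 kb from that of Rpl11. The 7 peaks named for Id3 were all higher too, with log2 fold changes of 1.05 to 3.05. The 11 higher peaks of both names spanned 79.9 kb.

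**Figure D5:**
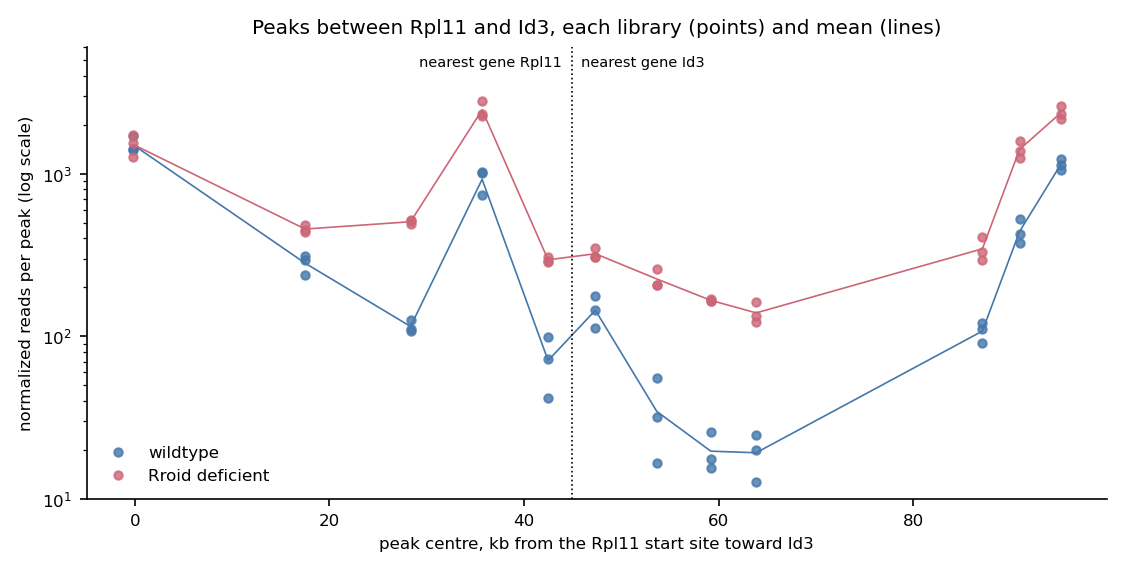
Normalized reads per peak (vertical log axis) of the 12 peaks named for Rpl11 or Id3 against distance from the Rpl11 start site in kb, with each wildtype (blue) and Rroid-deficient (red) library as a point and group means as lines. The genotypes overlap at the Rpl11 start-site peak, and the Rroid-deficient libraries are higher at the other 11 peaks on both sides of the dotted line where the nearest gene changes.

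Rplp1 had the most peaks, 23 in all, of which 22 were distal, between 7.0 and 269 kb from its start. Of these 6 rose and 0 fell (at an unadjusted p under 0.05, 7 higher and 3 lower by limma and also by edgeR). All 6 lay in the intergenic stretch between Rplp1 and Tle3, a transcriptional corepressor gene. The largest rise (chr9:61596114-61597351, 166 kb from the start) went from 29.4, 41.2 and 37.1 to 125, 119 and 127 normalized reads (log2 fold change 1.77, SE 0.24, limma adjusted p = 4.48e-05). Others at 123 kb and 208 kb rose without overlap, from 80.8 ± 19.8 to 207 ± 23.0 and from 224 ± 28.2 to 402 ± 21.4 normalized reads (SD, n = 3 libraries each, limma adjusted p = 0.000131 and 0.000327). The tallest distal peak of the stretch, at 233 kb, held 4772, 6066 and 4970 against 4039, 5040 and 4271 and was not called (log2 fold change -0.24, limma adjusted p = 0.0833). Log2 fold changes of the 19 peaks named for Tle3 ran from -1.37 to 0.80, and most were not called. Over all 51775 peaks, 12.1% were lower. Of the 19, 0 were higher and 4 lower (limma, with 1 higher at an unadjusted p under 0.05, and 0 higher and 4 lower by edgeR). Of those 4, 3 were intergenic on the Rplp1 side, and the tallest of them fell from 1023 ± 109 to 638 ± 120 normalized reads (chr9:61475224-61476182, SD, n = 3 libraries each, limma adjusted p = 0.000845). The stretch thus held called peaks in both directions.

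The lower distal peaks carried 13 gene names and the higher ones 7. Of the 25 lower distal peaks, 16 lay in an intron of another gene, as did 43 of all 139 distal peaks. Of the 15 higher ones, 13 were intergenic, as were 88 of all 139. These 13 included the 4 named for Rpl11 and the 6 named for Rplp1. All 4 distal peaks named for Rpl32l lay in introns of Map7, a microtubule-associated protein gene, and fell. The deepest (chr10:19955201-19956028) went from 673, 615 and 557 to 168, 203 and 177 normalized reads (log2 fold change -1.75, SE 0.14, limma adjusted p = 1.32e-07), and those at 11.8 and 15.1 kb had log2 fold changes of -1.15 and -1.62. Of 9 distal peaks named for Rps4l, 5 fell, all in introns of Tmtc1, while its start-site peak, described above, was higher. The tallest of the 5 (chr6:148242836-148243815) went from 1027, 819 and 971 to 432, 378 and 467 normalized reads (log2 fold change -1.14, SE 0.12, limma adjusted p = 4.22e-06). None of these groups overlapped.

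Single lower peaks were also named for other small-subunit genes. An intergenic peak 249 kb from Rps15a (chr7:125009998-125011067) fell from 271, 133 and 118 to 80.9, 43.8 and 48.4 (log2 fold change -1.53, SE 0.30, limma adjusted p = 0.00111), with wildtype library 1 well above the other two. A peak 2.3 kb upstream of Rps10 (chr17:27774193-27774776) fell from 215, 221 and 129 to 94.2, 101 and 82.2 (log2 fold change -0.98, SE 0.22, limma adjusted p = 0.00305). The promoter or start-site peaks of Rps15a and Rps10 were not called.

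Further distal falls were at 3 of 6 peaks of Rps14 and at 3 of 4 peaks of Rps23. The human RPS14 gene lies in the segment deleted in the 5q- form of myelodysplasia, and Rps23 encodes a protein of the decoding centre. The tallest of the lower Rps14 peaks, 22.0 kb upstream, held 1134, 1222 and 1121 normalized reads in wildtype and 825, 863 and 787 in Rroid-deficient libraries (log2 fold change -0.49, SE 0.10, limma adjusted p = 0.00149). At Rpl34, 1 of 11 distal peaks fell (6.6 kb upstream, 228 ± 9.64 against 136 ± 12.1 normalized reads, SD, n = 3 libraries each, limma adjusted p = 0.00261). The Rpl37rt peak in an intron of Sppl3 fell from 856 ± 44.4 to 511 ± 79.1 (limma adjusted p = 0.000232). Rpl5, which forms a complex with Rpl11 and 5S RNA, had 2 lower and 1 higher of 7 distal peaks, all 3 in introns of Dipk1a. Rps13 had 1 higher of 4, from 119, 104 and 94.7 to 179, 188 and 212 normalized reads 6.1 kb from its start (log2 fold change 0.86, SE 0.18, limma adjusted p = 0.00196). The farthest peak, 289 kb from Rps24, was not called (log2 fold change 0.29, limma adjusted p = 0.155).

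Several ribosomal protein genes lay outside the name rule. Start sites of Rpl7, Rps25, Rpl4 and Rpl36al fell in promoter peaks named for Rdh10, Trappc4, Zwilch and Mgat2, with log2 fold changes of -0.14, -0.01, -0.16 and -0.14 and no call. Rpsa (-0.19, limma adjusted p = 0.101) and Fau (-0.16), which also encode ribosomal proteins, were not called. Gnb2l1, which encodes the small-subunit scaffold RACK1, rose from 1003, 993 and 904 to 1087, 1245 and 1227 normalized reads (log2 fold change 0.29, SE 0.10, limma adjusted p = 0.0403).

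Promoter peaks of related gene lists are given beside these for scale, with no test between lists. Over all promoter peaks, 8.8% fell and 9.94% rose. Of 41 mitochondrial ribosomal protein promoters, 1 rose (Mrpl43, log2 fold change 0.25) and 1 fell (Mrpl54, -0.28), and their median was -0.10. Of 7 promoters of other genes with terminal oligopyrimidine transcripts, 0 rose and 1 fell, that of the elongation factor gene Eef2 (4181 ± 220.4 against 3526 ± 360.4 normalized reads, SD, n = 3 libraries each, limma adjusted p = 0.0434). Of 25 ribosome biogenesis promoters, 2 rose and 1 fell: Rrn3, which recruits RNA polymerase I (log2 fold change 0.47, limma adjusted p = 0.00242), Rpf2 (0.35, 0.0163) and Pes1 (-0.40, 0.0184). A list of 17 promoters of initiation factors, of kinases that control translation (such as Mtor and Rps6kb1) and of the transcription factors Sp1 and Max had 1 rise and 2 falls, all at initiation factor genes: Eif3m rose (0.32), and Eif2s3x (-0.35) and Eif1 (-0.26) fell. Start-site peaks outside the promoter class are not in these counts. Among them, those of Vim, Eif4b and Eef1a1 fell and that of Naca rose in the oligopyrimidine list. In the biogenesis list Rrp12 rose and Ddx10 fell, and in the translation list Eif3d fell. Of 19 such mitochondrial ribosomal protein peaks, 1 fell and 0 rose. Over all start-site peaks outside the promoter class, 8.64% fell and 11.0% rose.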

How the data were processed

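ATAC-seq was analysed from 1 deposited table of 51775 consensus peaks and a signal value for each of 6 libraries. The reads were handled with HOMER, DiffBind, MACS2 2.1.0, R 3.1.1, BWA, Trimmomatic 0.32 and bcl2fastq 2.16.0 on build mm9, per the submitters' processing notes. What each did, the read shift and duplicate removal are not given in the sources used here. As deposited, the signal is a normalized read number: dividing each column by its smallest step gave whole reads (tolerance 0.01) for 100% of values. Column names gave genotype but no matching replicate number, so the columns are called wildtype libraries 1 to 3 and Rroid-deficient libraries 4 to 6. Gene names, promoter class and distance come from the table's annotation.

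Log2(value + 1) of all peaks was fitted with limma 3.58.1 (trend, R 4.3.3, genotype only, no filter), with Benjamini-Hochberg adjustment over all peaks and calls under 0.05. Calls are of peaks, whose fold changes are on that scale. Alternatives were total-read, DESeq2 (1.42.0) and loess scaling, pseudocounts of 0.5 and 5, a filter (50 or more in 3 libraries), edgeR 4.0.16 and DESeq2 on recovered reads, a limit of 0.01, other member rules and leaving out each library. The fit was tested on simulated data in which far fewer peaks changed than were called here. That simulation does not measure how many of these calls are false. Peaks named are all called promoter peaks, the 4 tallest, the 4 tall uncalled with the smallest change and the lowest, and the 20 other called peaks with the smallest p, the nearest and the farthest. A few of these are not reported here. Further peaks and genes were named after their values were seen. Members and lists were chosen with earlier results of these data known.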

Additional observations from a re-analysis of the deposited data

How the results depend on the processing

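With the limit at 0.01, 2 promoter peaks were lower (2.62% of all promoter peaks). Outside promoters 17 peaks were lower (6.83% of all such peaks). Loess scaling gave 1 higher promoter peak, and counting all peaks within 1000 bp as promoters gave 3 higher. Outside promoters, the lower count was 16 for listed genes only, and 7 fell and 7 rose within 10000 bp of the start. The median outside promoters was -0.0419 scaled to total reads and -0.0299 for listed genes only. Leaving out each library in turn gave 1 to 14 lower promoter peaks and 0 higher, 20 to 28 lower and 12 to 19 higher outside promoters, and medians of -0.1979 to -0.0747 and -0.1395 to -0.0684. In those fits 3.08% to 12.5% of all promoter peaks and 8.35% to 12.1% of all peaks outside promoters were lower. The cause of these shifts was not tested, except that fewer peaks are counted under the listed-gene and distance rules.

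Of 41 peaks followed, 32 were called; 22 kept their call in every setting, 10 lost it in at least 1, and 0 called peaks changed sign. Uncalled peaks with small changes did: Rps27a without wildtype library 1 (-0.0129, with 0.0776 the highest without any library), Rpl15 scaled to total reads (0.0048), by loess (0.0385) or without wildtype library 3 (0.0143, with -0.0897 the lowest without any library), Rps3 by loess (0.0104), and Rps13 scaled to total reads (0.012) or by loess (0.0288). The share of promoter calls that were higher was 53.0% in the reported fit, 68.2% scaled to total reads and 70.3% by loess. In the same order, the median log2 fold change over all promoter peaks was -0.03, 0.02 and 0.03. The members' promoter median under these scalings is not given here. No paired analysis was possible because the Rroid-deficient columns carry no replicate number of the labels. Shallower libraries limit what weak distal peaks can show.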
